A study of Mus musculus with 42 samples.

Results

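The Hippo pathway and the angiomotins were followed in preimplantation mouse embryos through 10 genes: Amot, Amotl1, Amotl2, Lats1, Lats2, Mob1a, Nf2, Yap1, Wwtr1 and Ccn2. The members were all probe sets that the platform annotation assigns to 1 of these symbols alone, which gave 28 of the 45101 probe sets on the array, for 10 of its 18193 named genes. A probe set shared by Lats2 and Xpo4 was left out. Where a gene had several probe sets, the one with the highest mean intensity stood for it. A filter on low values left 15502 genes to be tested, and 10 of the 10 members passed it, as did 27 of their 28 probe sets.

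Fertilized 1-cell embryos of the strain B6D2F1 received a morpholino, a synthetic oligomer that pairs with an mRNA and hinders its translation or splicing, and were cultured in Human Tubal Fluid medium with a serum supplement. The oligomers were directed against Oct4 (gene symbol Pou5f1), Sall4 or Nanog, 3 factors of the pluripotency network, and a control oligomer had no target in the mouse. RNA was taken 20 h or 44 h after injection, amplified and hybridised to Affymetrix arrays, 3 arrays to each of 14 groups, 42 in all. The comparisons ask which transcripts depend on each factor at each time. At 20 h, embryos with the Oct4 morpholino and embryos with the Sall4 morpholino were each set beside uninjected embryos of their own experiment, so at that time injection and knockdown cannot be told apart for these factors. At 44 h, 1 experiment held uninjected embryos and embryos with the control, Oct4 or Sall4 morpholino. The Nanog experiment held uninjected embryos and embryos with the control or Nanog morpholino at both times. The titles of the Oct4, Sall4 and Nanog morpholino arrays name no experiment. These arrays were placed with the uninjected and control arrays of their time that are titled for the same factor. The labels do not state how many embryos stand behind an array. Values come from the RNA of embryos, so fewer cells of a type and less RNA per cell cannot be told apart.

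Deposited values are intensities on a linear scale. The 18 arrays of the Nanog experiment had medians of 193 to 227 and the other 24 had medians of 26.1 to 33.3, so intensities were compared only within an experiment. A morpholino need not lower its target mRNA, and the target mRNA therefore checks no label. At 44 h the Pou5f1 transcript read 1942 to 2458 with the Oct4 morpholino against 3573 to 4440 with the control. The Sall4 transcript read 3280 to 4176 with the Sall4 morpholino against 2744 to 3497. The Nanog transcript read 1412 to 3562 with the Nanog morpholino against 3719 to 3939. Pou5f1 was lower with the other morpholinos too. It read 1384 to 2668 with Sall4, and 3394 to 4722 with Nanog against 6183 to 6913 with that control. The Sall4 transcript was also lower with the Oct4 morpholino, at 1511 to 1627. Oocyte and early embryo markers were bright: the 6 of 7 that were measured summed to 27201 to 35619 in the Nanog experiment and to 13188 to 20765 elsewhere. Of 6 measured granulosa and cumulus markers, 0 were above the array median on any array of the Nanog experiment. On the other 24 arrays Ptx3 was above it on 3, Foxl2 and Tnfaip6 on 2 each, Amh on 1, and Has2 and Fshr on 0. Of 7 blood and fibroblast markers, Ptprc, Hba-a1, Col3a1 and Dcn were below the median of every array. Alas2 was above it on 3 of the other 24 arrays, Col1a1 on 10 arrays of the Nanog experiment and 4 others, and Pecam1 on 17 and 24.

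In the Hippo pathway, the kinases LATS1 and LATS2, helped by the adaptor MOB1A and by the membrane-linked protein merlin (the product of Nf2), phosphorylate the coactivators YAP1 and TAZ (the product of Wwtr1) and keep them out of the nucleus. Unphosphorylated YAP1 and TAZ enter the nucleus, bind TEAD factors and switch on genes such as Ccn2, which encodes a secreted matricellular protein. Angiomotins (Amot, Amotl1, Amotl2) are junction and actin-binding scaffolds that bind YAP1 and help LATS kinases to be activated. In the preimplantation embryo the pathway is known for separating the outer cells, where YAP1 is nuclear and trophectoderm genes are turned on, from the inner cells, where angiomotin and LATS keep YAP1 in the cytoplasm.

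Since TEAD factors carry the output of the pathway, the 250 bases before the annotated start of each member were searched for the core letters of the TEAD motif, GGAATG, and its reverse complement CATTCC. RefSeq (GRCm38.p6) had promoter entries for 9 of the 10 members, 12 entries in all, and not for Ccn2. The letters stood before 4 of the 9 genes, in 5 of 12 entries, against 12.64% of all 32851 promoters. The stretches below hold each match, in capitals, with its flanks, in the direction of the gene.
Amotl2: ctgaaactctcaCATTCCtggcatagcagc
Mob1a: tggccagaatagCATTCCtttaggagaaga
Wwtr1: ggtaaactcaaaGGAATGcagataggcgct
Yap1: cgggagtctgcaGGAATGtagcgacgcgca
The Amotl2 stretch lies at chr9:102717727-102717756 on the plus strand, with the match 65 bases before a start that is itself inside the gene (9, 102717091 to 102733418). The Mob1a stretch lies at chr6:83325818-83325847 on the plus strand, with the match 209 bases before the start of its promoter entry, a start a few bases inside the listed span of the gene (6, 83326034 to 83342812). The Wwtr1 stretch is at chr3:57576029-57576058 and the Yap1 stretch at chr9:8004720-8004749, both on the minus strand, with matches 136 or 170 bases (2 annotated starts) and 141 bases before the start of the promoter entry. The searched windows of Amot, Amotl1 and Amotl2, and a window each of Lats2 and Nf2, lie wholly inside the listed spans of their genes. For Amot, Amotl1 and Amotl2 the bases before the outer end of the gene were therefore not searched. The octamer ATGCAAAT, the site of Oct factors, or its reverse complement was in 0 of the 12 entries, against 1.601% of all promoters. These are matches of letters in a window and say nothing of binding.

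Knockdown at 44 h lowered few of the members, and Amotl2 was among them in each case. With the Oct4 morpholino, 2 of 10 members fell and 0 rose against control-injected embryos, where 11.5% of all genes tested passed and 6.23% fell: Amotl2 and Mob1a. With the Sall4 morpholino, 2 of 10 fell and 0 rose, where 3.92% of all genes passed and 2.12% fell: Amotl2 and Ccn2. With the Nanog morpholino, 1 of 10 fell and 0 rose, where 5.03% of all genes passed and 1.52% fell: Amotl2. To pass, a gene needed an adjusted p below 0.05 in limma's moderated test, adjusted by Benjamini-Hochberg over the 15502 genes. The Oct4 and Sall4 groups share their control arrays, so their Amotl2 values are not independent of each other. The median log2 change of the 10 members was -0.34 with Oct4, -0.26 with Sall4 and -0.13 with Nanog knockdown, where the medians of all genes were 0.02, -0.02 and 0.05. Against uninjected embryos of the same time, 2 of 10 members passed with Oct4 (14.4% of all genes), 3 with Sall4 (6.97%) and 1 with Nanog knockdown (8.23%): the same genes, and Lats2 with Sall4 knockdown.

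**Figure D1:**
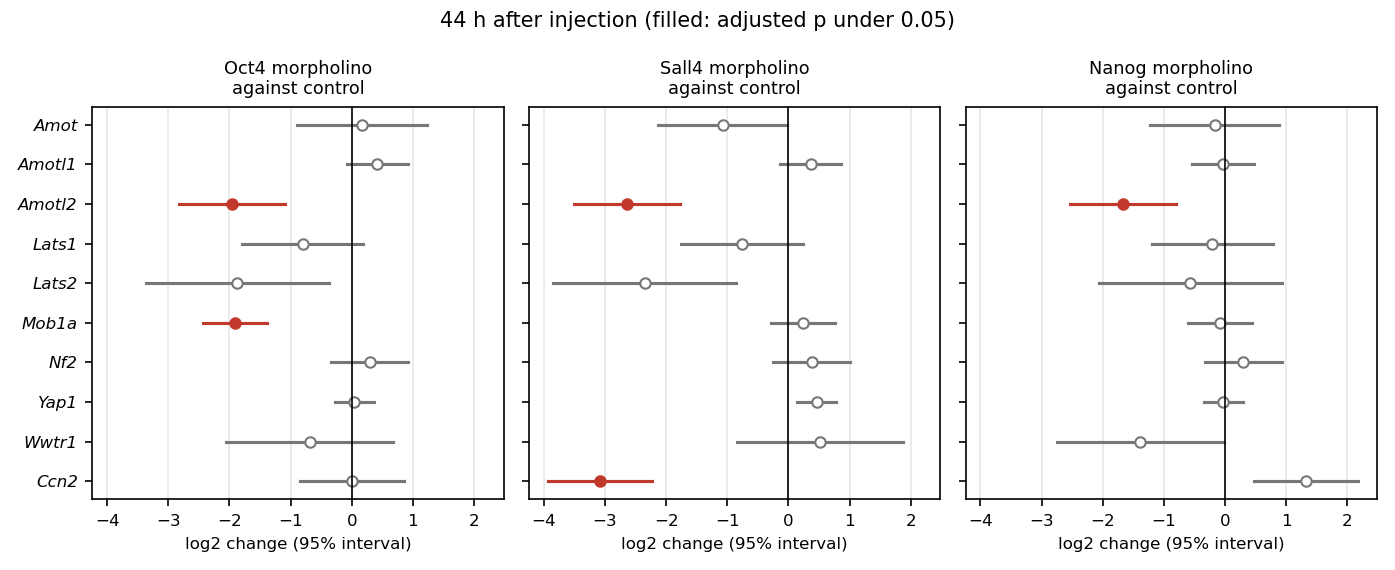
Log2 change of the 10 members 44 h after injection, each knockdown against control-injected embryos of its experiment (3 arrays against 3); points are fitted changes on the log2(intensity + 16) scale, lines 95% intervals, and filled points have an adjusted p under 0.05. Amotl2 is filled in all 3 panels, Mob1a in the Oct4 panel and Ccn2 in the Sall4 panel.

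Among the angiomotins, Amotl2 (probe set 1452387_a_at) was the member called with each of the 3 morpholinos at 44 h. On the arrays shared by Oct4 and Sall4 it read 283, 420 and 427 on the control arrays and 227, 407 and 264 on the uninjected arrays. It read 84.5, 140 and 46.7 with the Oct4 morpholino and 35.8, 21.9 and 104 with the Sall4 morpholino. All 6 knockdown arrays lay below all 6 arrays of both control groups. Against control injection Amotl2 stood at -1.96 (SE 0.42, adjusted p = 0.00211) with Oct4 and -2.65 (SE 0.42, adjusted p = 0.000308) with Sall4 knockdown. Both calls held in all 18 alternative settings of the processing. Amotl2 has 1 probe set, so the settings that change the probe set rule left its values as they were. Against uninjected embryos, the change with Oct4 knockdown (-1.62, adjusted p = 0.0078) did not pass without the second uninjected array (adjusted p = 0.0537) or without the third Oct4 array (adjusted p = 0.0658), while that with Sall4 knockdown was -2.31 (adjusted p = 0.000732).

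In the Nanog experiment at 44 h, Amotl2 read 2979, 4118 and 3050 on the control arrays, 3771, 3091 and 2209 on the uninjected arrays and 1070, 487 and 2125 with the Nanog morpholino. All 3 knockdown arrays were below the control and the uninjected arrays. Amotl2 fell by 1.67 there, a log2 change of -1.67 (SE 0.42, adjusted p = 0.0161). The call was lost with a pseudocount of 1 (adjusted p = 0.0619), with the arrays of that experiment fitted alone (0.172), and without control array 2 (0.0872), Nanog array 1 (0.0501) or Nanog array 2 (-1.14, adjusted p = 0.148). The Amotl2 effect of Oct4 and of Sall4 knockdown differed from that of Nanog knockdown by -0.29 (95% interval -1.51 to 0.94) and -0.97 (-2.20 to 0.25), neither of which passed the test.

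**Figure D2:**
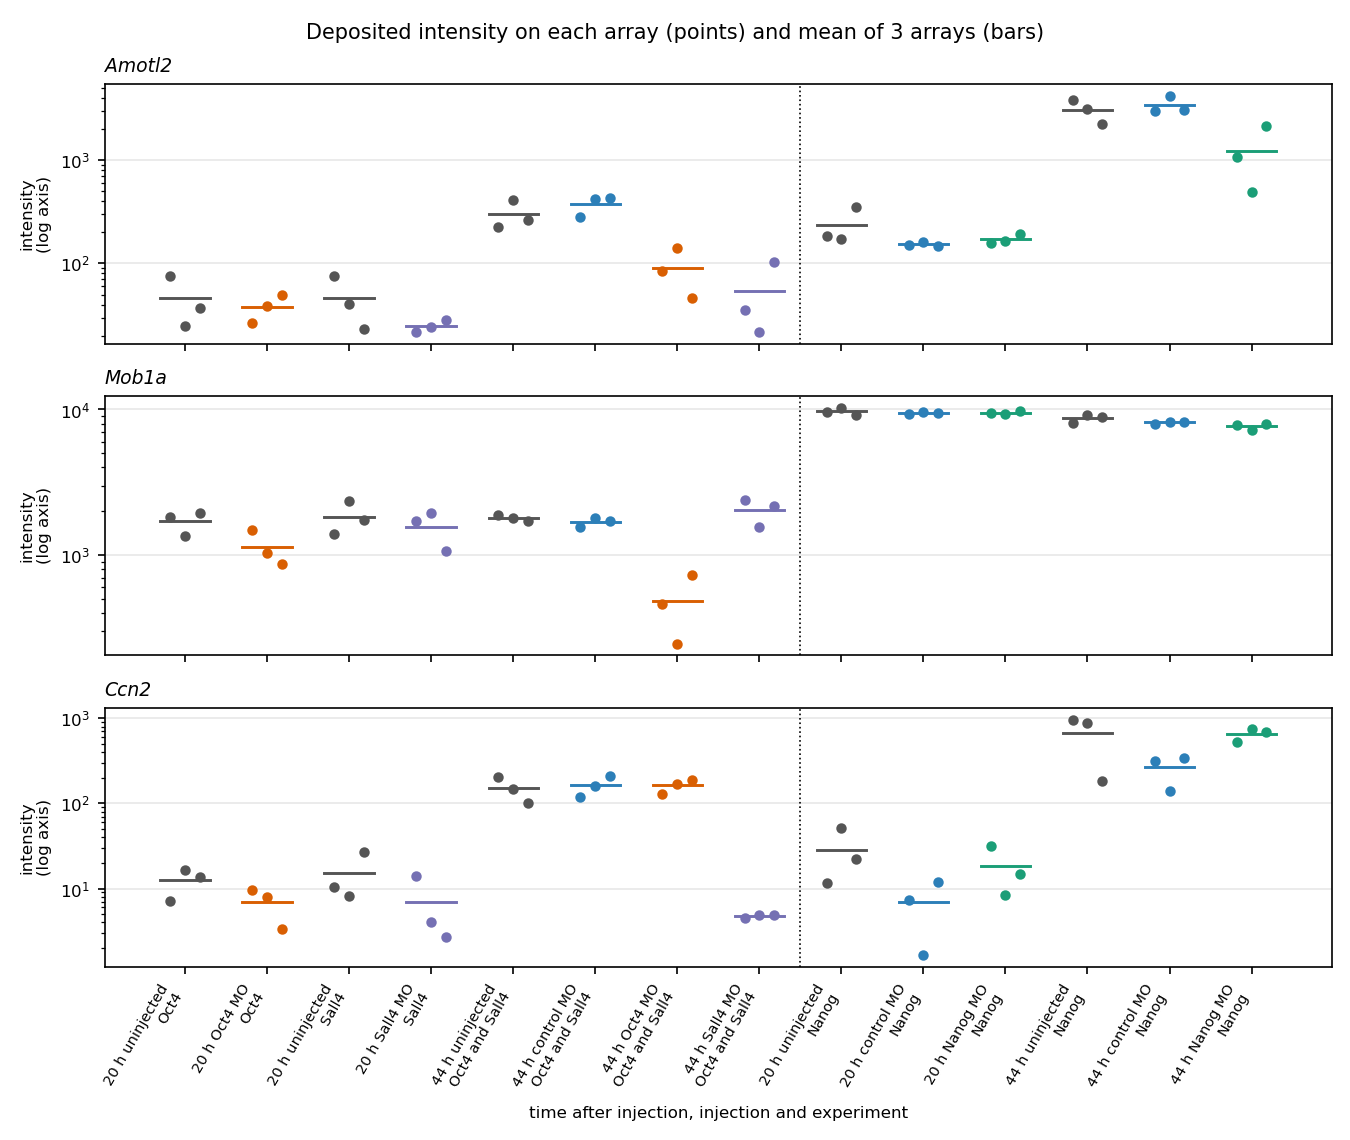
Deposited intensity (log axis) of Amotl2, Mob1a and Ccn2 on each of the 42 arrays (points) with the mean of 3 arrays (bars), by time, injection and experiment; MO is morpholino, and the dotted line separates the Nanog experiment, whose arrays have higher medians. Amotl2 is low at 20 h. At 44 h it is lower on the knockdown arrays than on the control and uninjected arrays of the same experiment. Mob1a is low on the Oct4 arrays at 44 h, and Ccn2 reads 4.47 to 4.94 on the Sall4 arrays at 44 h.

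Amot, the founding angiomotin, was not called in any knockdown with the settings used throughout. At 44 h it read 1120, 1658 and 1774 with the control, 1228, 2505 and 1521 with the Oct4 morpholino and 875, 410 and 940 with the Sall4 morpholino. The Sall4 arrays lay below all 9 others of that experiment and time, but the change of -1.08 against control injection had an adjusted p of 0.292 (95% interval -2.14 to -0.02). Of its 3 probe sets, 2 were below 0 in that comparison and 0 passed; against uninjected embryos 1427584_at fell on its own (-2.10, adjusted p = 0.0133). In that comparison the gene stood at -1.54 (adjusted p = 0.0688), and it passed with the mean of its probe sets (-1.20, adjusted p = 0.00699) and with the replicate block (-1.54, adjusted p = 0.0371). In the Nanog experiment at 44 h, the control arrays read 4848 to 5307 and the Nanog arrays 3710 to 5254, and the groups overlapped (-0.17, adjusted p = 0.943). Amotl1 read 35.8 to 73.9 with the control and 54.2 to 102 with the Oct4 morpholino at 44 h. It passed in 0 of the 3 comparisons, with changes of -0.04 to 0.42.

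In the kinase module, Mob1a, whose product binds LATS kinases and helps to activate them, was lower with the Oct4 morpholino. At 44 h its probe set 1424484_at read 1552, 1810 and 1725 with the control, 1891, 1804 and 1710 in uninjected embryos and 464, 247 and 731 with the Oct4 morpholino. With the Sall4 morpholino it read 2380, 1556 and 2167. The Oct4 arrays were far below all 9 other arrays of that experiment and time, while Sall4 and control arrays overlapped. The log2 change with Oct4 knockdown was -1.91 (SE 0.26, adjusted p = 5.47e-06) against control injection and passed against uninjected embryos too (adjusted p = 1.87e-06). All 3 probe sets of the gene fell, by 1.56 to 2.25 on the log2 scale. With Sall4 knockdown the change was 0.24 (95% interval -0.28 to 0.76) and with Nanog knockdown -0.08 (-0.61 to 0.44). Its close paralog Mob1b read 775 ± 352 (SD, n = 3) with the Oct4 morpholino and 1882 ± 300.3 with the control (-1.36, adjusted p = 0.258). How far probes of either gene read the other was not tested.

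Lats2 encodes a kinase that phosphorylates YAP1 and TAZ, and its arrays spread widely. At 44 h it read 510, 854 and 878 with the control, 114, 73.6 and 700.3 with the Oct4 morpholino and 76.6, 72.8 and 359 with the Sall4 morpholino (probe set 1439441_x_at). The Sall4 arrays lay below the control arrays, while 1 Oct4 array reached into their range. The changes were -1.87 (SE 0.73, adjusted p = 0.098) and -2.35 (SE 0.73, adjusted p = 0.0632), so neither passed. All 6 probe sets of Lats2 were below 0 in both comparisons, and 2 of 6 passed with Oct4 and 0 of 6 with Sall4 knockdown when probe sets were fitted singly. With the mean of its probe sets the gene did pass, at -1.16 (adjusted p = 0.00177) with Oct4 and -1.47 (adjusted p = 0.000539) with Sall4 knockdown. Against uninjected embryos Lats2 fell with Sall4 knockdown (-2.44, adjusted p = 0.0367), but not with the experiment fitted alone (0.126) or without uninjected array 1 (0.099) or 2 (0.129) or Sall4 array 1 (0.134) or 2 (0.183). Against control injection it also passed without the third Oct4 array (-2.78, adjusted p = 0.0152) and without the third Sall4 array (-3.03, adjusted p = 0.0181). In the Nanog experiment it read 2497, 3419 and 2206 with the control and 1234, 2294 and 2029 with the Nanog morpholino, and the groups overlapped (-0.57, adjusted p = 0.815).

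Lats1, the related kinase, read 213, 332 and 273 with the control, 168, 151 and 126 with the Oct4 morpholino and 237, 192 and 74.3 with the Sall4 morpholino at 44 h. The Oct4 arrays were below the control arrays, but the change of -0.80 (95% interval -1.79 to 0.19) did not pass (adjusted p = 0.341), nor did that with Sall4 knockdown (-0.76, adjusted p = 0.501). Nf2, which encodes merlin, read 495 to 713 with the control, 581 to 1246 with the Oct4 morpholino and 716 to 898 with the Sall4 morpholino. Its changes at 44 h were 0.29, 0.38 and 0.30 with Oct4, Sall4 and Nanog knockdown, and 0 of the 3 passed. Of its 4 probe sets, 1 was above 0 with Oct4 knockdown (-0.59 to 0.29), and all 4 were with Sall4 and with Nanog knockdown. Against uninjected embryos all 4 lay below 0 with Oct4 knockdown (-1.12 to -0.16), and 1 passed on its own. With the mean of its probe sets Nf2 passed in that comparison (-0.70, adjusted p = 0.0225).

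**Figure D3:**
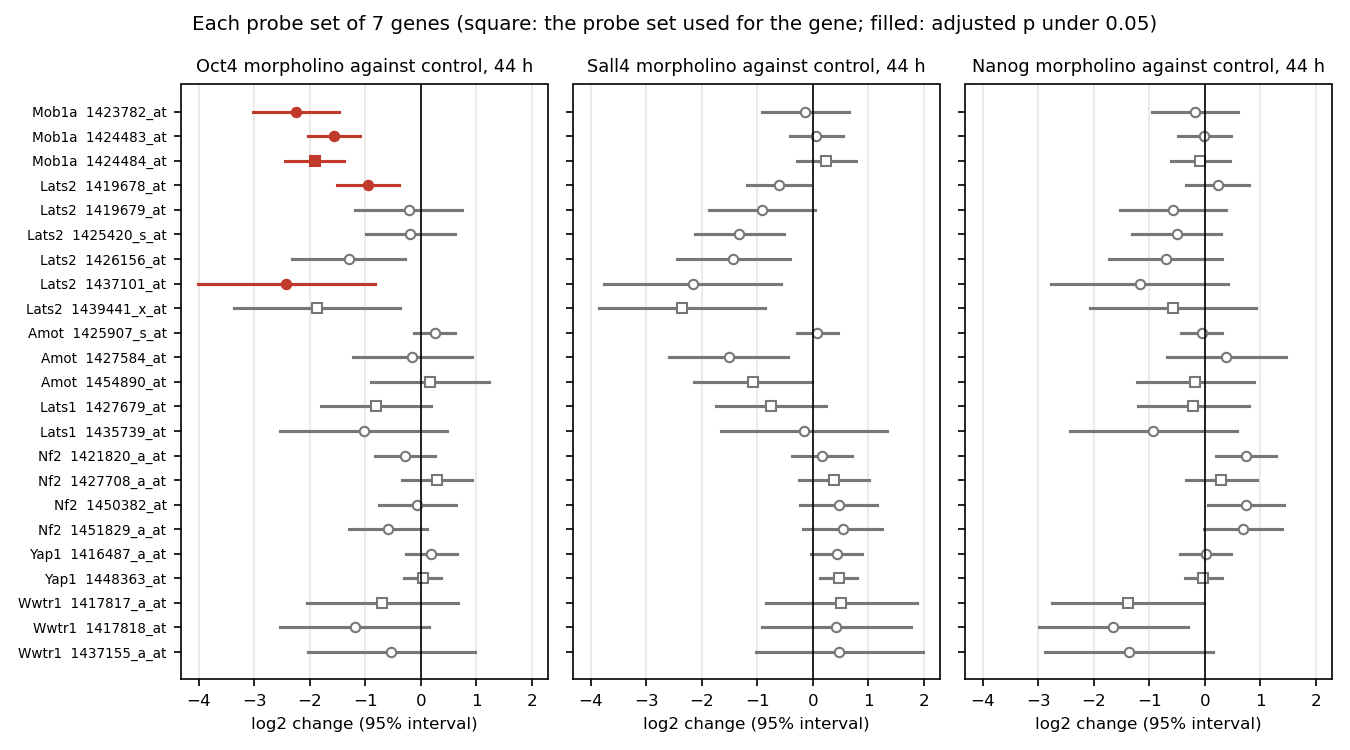
Log2 change of every tested probe set of Mob1a, Lats2, Amot, Lats1, Nf2, Yap1 and Wwtr1, 44 h after injection, each knockdown against control-injected embryos; lines are 95% intervals, squares mark the probe set that stands for the gene, and filled symbols have an adjusted p under 0.05 over 28588 probe sets. The 3 Mob1a and 2 of the 6 Lats2 probe sets are filled in the Oct4 panel, and none of these probe sets is filled in the other panels.

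The effectors themselves passed in none of the 3 comparisons. Yap1, the coactivator held in check by LATS kinases, read 2301, 2403 and 2756 with the control and 3356, 3078 and 3915 with the Sall4 morpholino at 44 h. These groups did not overlap, and the change of 0.47 (SE 0.16, 95% interval 0.15 to 0.79) had an adjusted p of 0.0891. It passed with quantile normalization (0.56, adjusted p = 0.019) and with array weights (0.47, adjusted p = 0.0494). With the Oct4 morpholino Yap1 read 1784, 3383 and 2731, which spans the control arrays (0.04, adjusted p = 0.941), and in the Nanog experiment 7631 to 8266 against 8001 to 8182 (-0.03, adjusted p = 0.973).

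Wwtr1, which encodes TAZ, read 365, 409 and 492 with the control, 84.1, 530.5 and 342 with the Oct4 morpholino and 603, 530 and 691 with the Sall4 morpholino. In the Nanog experiment it read 1829, 1907 and 1470 with the control and 239, 726 and 1553 with the Nanog morpholino, where 1 knockdown array reached the control range. The change there was -1.38 (95% interval -2.75 to -0.02, adjusted p = 0.281). All 3 probe sets lay below 0 with Nanog knockdown (-1.65 to -1.37) and above 0 with Sall4 knockdown (0.42 to 0.51), and 0 of 3 passed in either.

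Ccn2, the target gene (10, 24595442 to 24598683, GRCm38.p6), was lowest with Sall4 knockdown at 44 h. At 44 h its probe set 1416953_at read 120, 161 and 210 with the control, 206, 147 and 100.1 in uninjected embryos and 129, 168 and 190 with the Oct4 morpholino. With the Sall4 morpholino it read 4.47, 4.94 and 4.85, below the median of every array. Ccn2 fell by 3.08 on the log2 scale (SE 0.42, adjusted p = 4.31e-05) against control injection and -2.96 (adjusted p = 2.86e-05) against uninjected embryos. The size moved with the pseudocount: it was -4.80 with 1 and -1.71 with 64 in place of 16 (-4.66 and -1.61 against uninjected embryos), and the call held in all 18 alternatives. Ccn2 has 1 probe set, so the settings that change the probe set rule left its values as they were. With Oct4 knockdown the change was 0.01 (95% interval -0.85 to 0.86).

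In the Nanog experiment, Ccn2 read 312, 138 and 343 with the control, 531, 738 and 681 with the Nanog morpholino and 955, 882 and 186 in uninjected embryos. The Nanog arrays lay above the control arrays and within the range of the uninjected ones. The change of 1.33 against control injection (SE 0.42, 95% interval 0.48 to 2.18) had an adjusted p of 0.0596. It passed with a pseudocount of 64 (1.17, adjusted p = 0.0157), with the filter at the 75th percentile (adjusted p = 0.0465) and with the mean of all probe sets of each gene (adjusted p = 0.0431). Under that filter and that mean the Ccn2 change stayed at 1.33, and only the other genes in the fit differed.

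Direct comparison of Oct4 with Sall4 knockdown at 44 h called 2 of 10 members, where 7.12% of all genes passed. Mob1a was lower with Oct4 than with Sall4 knockdown by 2.15 on the log2 scale, a change of -2.15 (SE 0.26, adjusted p = 1.23e-06), and its 3 probe sets all fell. Ccn2 was higher with Oct4 knockdown, by 3.09 (SE 0.42, adjusted p = 1.17e-05; 4.81 with a pseudocount of 1 and 1.71 with 64). Amot stood at 1.24 in this comparison (95% interval 0.19 to 2.30, adjusted p = 0.158), and its arrays did not overlap. Amotl2 stood at 0.69 (-0.18 to 1.55, adjusted p = 0.407). Yap1 stood at -0.43 (adjusted p = 0.0955) and passed without the second Oct4 array (-0.63, adjusted p = 0.0111).

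The effects of the knockdowns were also tested against each other across experiments, each relative to its own control injection, although experiment and factor cannot be told apart there. The Mob1a effect of Oct4 knockdown was below that of Nanog knockdown by 1.82 on the log2 scale, with a difference of -1.82 (SE 0.36, adjusted p = 0.00448), the member called of 10 where 2.15% of all genes passed. The Ccn2 effect of Sall4 knockdown differed from that of Nanog knockdown by -4.41 (SE 0.59, adjusted p = 0.000308; -6.19 to -2.88 over the alternatives), again 1 of 10 where 0.755% of all genes passed. For Wwtr1 the Sall4 and Nanog effects differed by 1.90 (95% interval -0.03 to 3.82, adjusted p = 0.426), which did not pass.

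On the arrays of this 44 h experiment the 6 measured granulosa and cumulus markers summed to 48.3 to 71.0 with the control, 70.6 to 91.0 with the Oct4 morpholino and 61.3 to 106 with the Sall4 morpholino. The 6 measured oocyte and embryo markers summed to 18556 to 20487 with the control, 17817 to 18959 with the Oct4 morpholino and 15034 to 18141 with the Sall4 morpholino. Pou5f1, the target of the Oct4 morpholino, is among these 6 and read 3573 to 4440, 1942 to 2458 and 1384 to 2668 in that order. The 7 blood and fibroblast markers summed to 184 to 390.2, 162 to 574 and 154 to 308. The part of these sums in the results above was not tested.

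At 20 h, 0 of 10 members passed in any knockdown. The share of all genes that passed was 2.01% with Oct4, 0.239% with Sall4 and 0.619% with Nanog knockdown. The member medians were -0.39, 0.04 and 0.07, beside medians of all genes of -0.02, 0.03 and -0.02. Before adjustment, limma put 1 member under 0.05 with Oct4 (Mob1a), 0 with Sall4 and 1 with Nanog knockdown (Lats1).

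Mob1a at 20 h read 1819, 1346 and 1950 in uninjected embryos and 1498, 1026 and 874 with the Oct4 morpholino, so that 1 array reached into the uninjected range. The change was -0.60 (SE 0.26, adjusted p = 0.341). All 3 Mob1a probe sets lay below 0 (-1.36 to -0.60), and 1424483_at passed on its own at -1.36 (adjusted p = 0.000931). As the mean of its probe sets the gene passed (-0.93, adjusted p = 0.0127), and with array weights too (-0.70, adjusted p = 0.0299).

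Lats1 at 20 h read 1506, 1670 and 2293 with the control and 1106, 572 and 862 with the Nanog morpholino. The groups did not overlap, and the change of -1.12 had an adjusted p of 0.499. Wwtr1 at 20 h read 183, 106 and 162 in uninjected embryos and 100.1, 51.2 and 31.9 with the Oct4 morpholino, again without overlap (-1.18, adjusted p = 0.603). Yap1 held the narrowest range at that time, with changes of -0.05, 0.02 and -0.04 with Oct4, Sall4 and Nanog knockdown, each with a 95% interval inside -0.37 to 0.34. Ccn2 read 1.64 to 51.0 on the arrays of the Nanog experiment at 20 h and 2.70 to 26.8 on the other 12, and every value in the Nanog experiment was below its array's median.

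Without injection, Amotl2, Ccn2, Amot and Lats2 rose and Yap1 fell with time. In the Nanog experiment, the 1 experiment that holds both times, 4 of 10 members rose and 1 fell from 20 h to 44 h, where 25.8% of all genes passed, 9.46% upward and 16.4% downward. The members' median was 0.74 and that of all genes 0.02. Amotl2 rose from 182, 171 and 348 to 3771, 3091 and 2209, by 3.64 on the log2 scale (SE 0.42, adjusted p = 1.15e-07). Ccn2 rose from 11.5, 51.0 and 22.0 to 955, 882 and 186 (3.76, adjusted p = 4.67e-08).

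Amot rose from 1217, 463 and 2788 to 4948, 4737 and 4293 (1.98, adjusted p = 0.00424). It passed in 17 of 18 alternatives and not without the second 20 h array (1.33, adjusted p = 0.0634). With all its probe sets averaged the rise was 1.07, where 1425907_s_at fell (-0.69, adjusted p = 0.00426) and the other 2 rose. Lats2 rose from 406, 647 and 377 to 2050, 1802 and 1923 (2.02, SE 0.73, adjusted p = 0.0397), with 4 of its 6 probe sets passing and all 6 above 0. This call was lost with a pseudocount of 1 (adjusted p = 0.0767) and without 20 h array 1 (0.102) or 3 (0.11), or 44 h array 1 (0.0911), 2 (0.0782) or 3 (0.0818).

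Yap1 was the member that fell, from 11460, 11710 and 11847 to 8190, 8962 and 8010 (-0.48, SE 0.16, adjusted p = 0.0218). Both its probe sets fell, and their mean by 0.85. The call on the single probe set did not pass without 20 h array 3 (adjusted p = 0.0599) or 44 h array 1 (0.0628) or 3 (0.0709). Amotl1 (0.21), Lats1 (0.75), Mob1a (-0.16), Nf2 (-0.22) and Wwtr1 (0.72) did not pass. For Wwtr1, 1417818_at rose on its own (2.24, adjusted p = 0.0107), while the gene's other 2 probe sets did not pass.

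**Figure D4:**
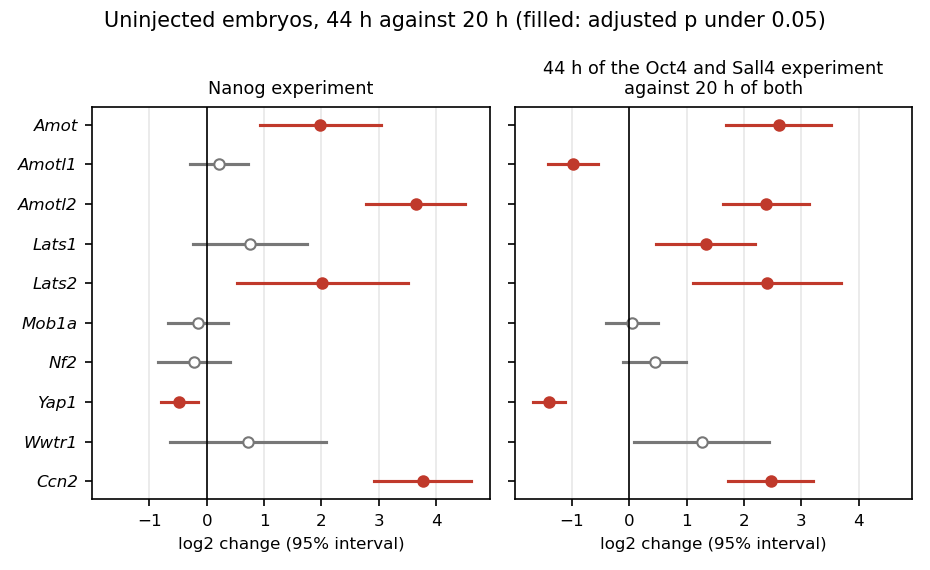
Log2 change of the 10 members in uninjected embryos from 20 h to 44 h, within the Nanog experiment (left, 3 arrays against 3) and between the 44 h Oct4 and Sall4 experiment and the 20 h arrays of both experiments (right, 3 arrays against 6); points are fitted changes, lines 95% intervals, and filled points have an adjusted p under 0.05. Amot, Amotl2, Lats2 and Ccn2 lie to the right and Yap1 to the left of 0 in both panels.

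The other uninjected arrays gave the same direction for those 5 members, but their 20 h and 44 h arrays belong to separately labelled experiments, so time and experiment cannot be told apart. There, 5 of 10 members were higher and 2 lower at 44 h, where 45.2% of all genes passed, 20.4% upward and 24.8% downward. Amot (2.60), Amotl2 (2.39), Lats1 (1.33), Lats2 (2.40) and Ccn2 (2.47) were higher, and Amotl1 (-0.99) and Yap1 (-1.40) lower. Yap1 read 6508 to 7987 at 20 h and 2336 to 2925 at 44 h. The Lats1 value rested on the third 44 h array, without which it was 0.82 (adjusted p = 0.161), and the Ccn2 value was 1.44 with a pseudocount of 64. The Amotl1 call was lost with the mean of its probe sets (-0.10, adjusted p = 0.726). Amotl1 also differed between the uninjected groups at 20 h, at 149, 161 and 171 in the Oct4 and 60.9, 77.4 and 90.2 in the Sall4 experiment, which were not tested against each other.

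**Figure D5:**
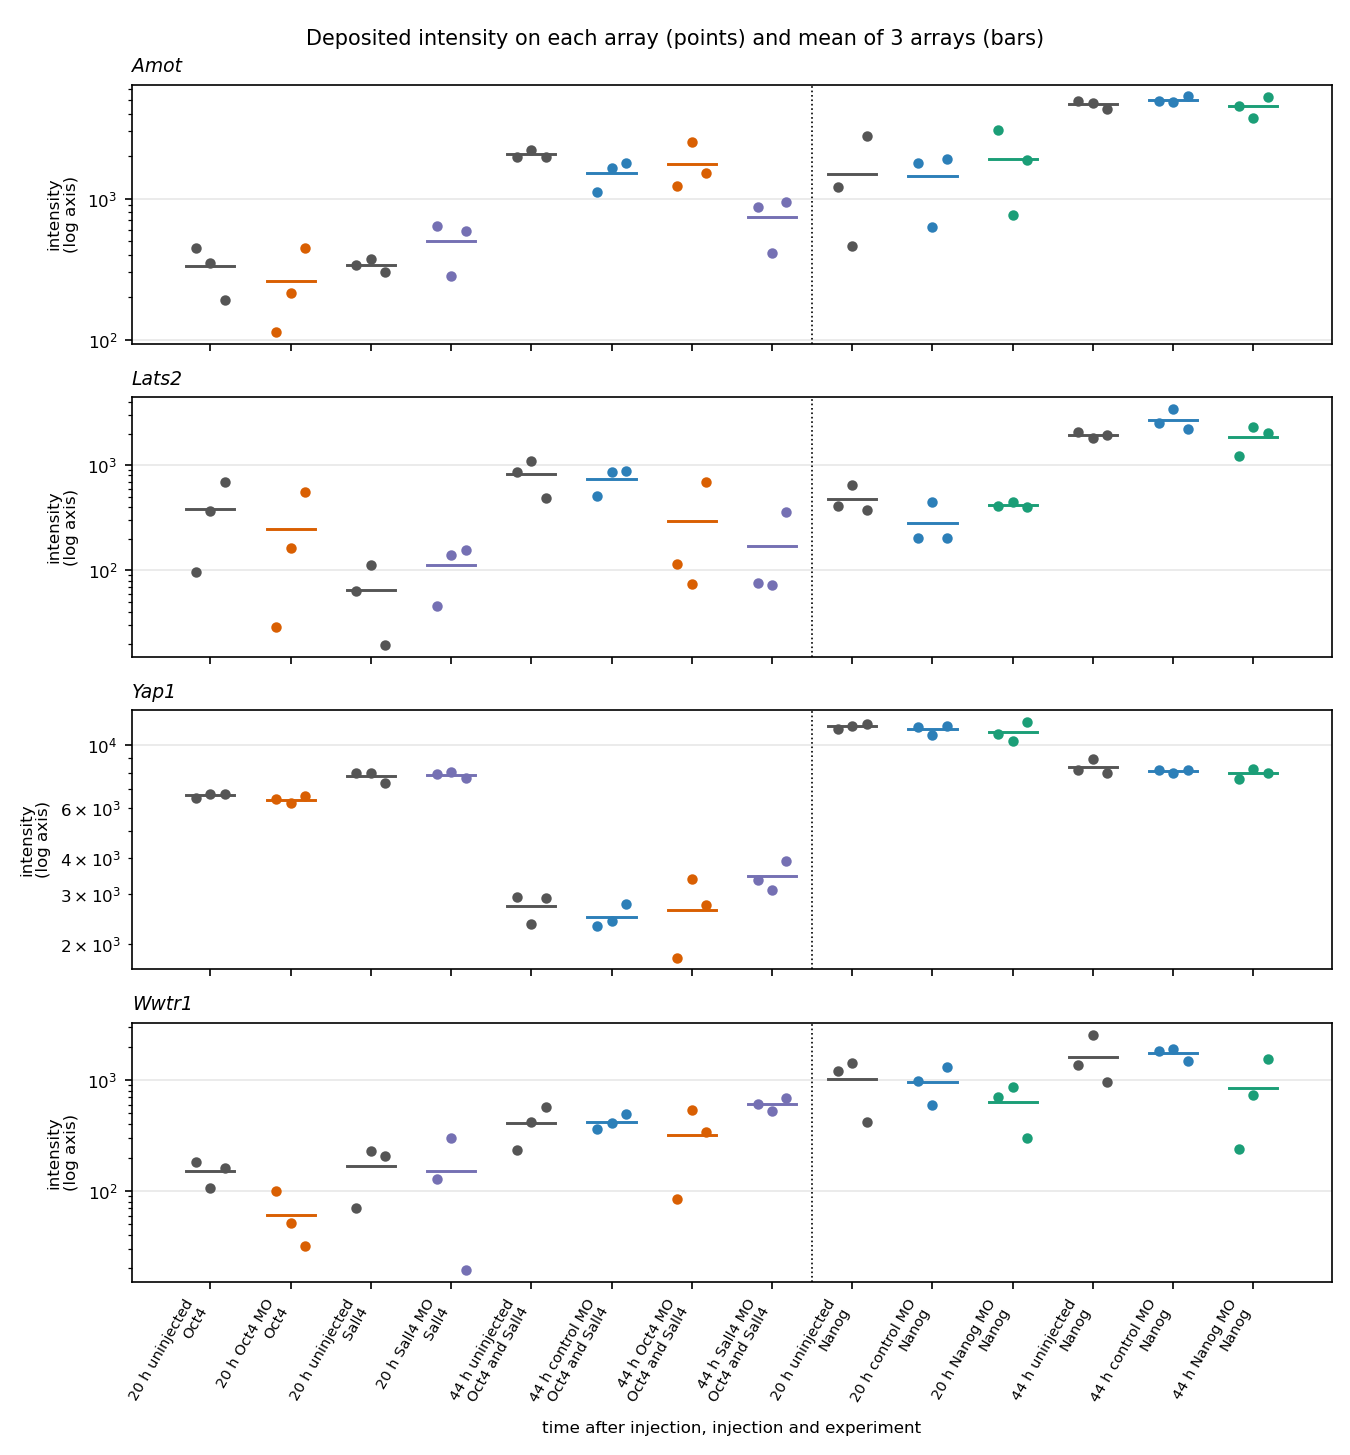
Deposited intensity (log axis) of Amot, Lats2, Yap1 and Wwtr1 on each of the 42 arrays (points) with the mean of 3 arrays (bars), by time, injection and experiment; MO is morpholino, and the dotted line separates the Nanog experiment. Yap1 is lower at 44 h than at 20 h on both sides of the line, and Amot is higher.

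Injection of the control oligomer called 0 of 10 members: at 20 h in the Nanog experiment (0.0903% of all genes passed), at 44 h beside the Oct4 and Sall4 groups (0.103%) and at 44 h in the Nanog experiment (0.445%). Before adjustment, limma put 1, 0 and 1 members under 0.05 in these comparisons, each time Ccn2 (-0.87 at 20 h and -1.09 at 44 h, adjusted p = 0.813 and 0.282). At 20 h the replicate numbers of control-injected and uninjected arrays paired the samples, and with them as a block 5 genes rose and 3 fell, against 9 and 5 without it, and 0 of 10 members passed. The uninjected Ccn2 values of the Nanog experiment at 44 h were split, 955 and 882 against 186, and without the third of them the change was -1.83 (adjusted p = 0.0132). The Ccn2 values of the Nanog morpholino arrays lay above all 3 control arrays and above 1 of the 3 uninjected arrays.

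The rest of the pathway was read through 4 lists and a list of lineage genes. Of 14 further kinases and cofactors, 11 were tested, and with Oct4 knockdown at 44 h 2 fell and 0 rose, where 6.23% of all genes fell (list median -0.36, all genes 0.02). They were Taok1, an upstream kinase (310 ± 87.6 against 833 ± 75.2, SD, n = 3; -1.42, adjusted p = 3.58e-05), and Stk4, the MST1 kinase that activates LATS (288 ± 50.2 against 577 ± 116; -0.96, adjusted p = 0.00887). Stk4 did not pass without the third control array (adjusted p = 0.06). With Sall4 knockdown 0 of 11 passed in limma (1 before adjustment). With Nanog knockdown 1 rose, Taok2, and 1 fell, Map4k5, where 3.51% of all genes rose and 1.52% fell, and each was lost in 8 of 17 alternatives. Before adjustment, limma put 4 of the 11 under 0.05 there. The list median was -0.03 with Sall4 (all genes -0.02) and 0.63 with Nanog knockdown (all genes 0.05). Against uninjected embryos it was 0.07 with Nanog knockdown (all genes -0.07). Control injection at 44 h in the Nanog experiment gave -0.52 (all genes -0.09).

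Of 28 upstream regulators, 23 were tested. At 44 h 5 rose and 2 fell with Oct4 knockdown, 5 rose and 1 fell with Sall4 knockdown, and 4 rose and 0 fell with Nanog knockdown. Of all genes, 5.26% rose and 6.23% fell with Oct4, 1.8% and 2.12% with Sall4, and 3.51% and 1.52% with Nanog knockdown. Wwc1 (KIBRA, which binds merlin) rose by 1.67, 2.21 and 2.13, and Limd1, an Ajuba-family protein that restrains LATS, by 1.61, 1.72 and 2.15, with Oct4, Sall4 and Nanog knockdown in that order. The Limd1 level with Nanog knockdown was 1318 ± 171 against 284 ± 41.5 (adjusted p = 0.000299), and this call held in all 17 alternatives. With Oct4 and Sall4 knockdown Limd1 did not pass with the mean of all probe sets (adjusted p = 0.184 and 0.0636) or with the experiment fitted alone (0.0796 and 0.139), and the mean of all probe sets gave Limd1 changes of 0.88, 1.32 and 1.41 and Wwc1 changes of 0.99, 1.29 and 0.93. Wwc1 was lost in 5 of 17 alternatives with Oct4, 1 with Sall4 and 5 with Nanog knockdown.

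Pard6b, a polarity protein of the apical domain, fell with Sall4 knockdown (88.7 ± 14.6 against 325 ± 33.5; -1.71, adjusted p = 0.000774, held in all 17 alternatives) and with Oct4 knockdown (-1.16, adjusted p = 0.00861, lost without the third Oct4 array, adjusted p = 0.0786). Magi1, a junction scaffold, fell with Oct4 knockdown (-1.86, adjusted p = 0.0204, lost in 6 of 17), and Mpdz, a tight junction scaffold, rose with Oct4 knockdown (1.56, adjusted p = 0.00745, lost without the first Oct4 array, adjusted p = 0.0524; 0.95 with the mean of all probe sets) and with Nanog knockdown (1.89, adjusted p = 0.00319, lost in 1 of 17, with the experiment fitted alone, adjusted p = 0.206; 0.90 with the mean of all probe sets). Without the third Oct4 array Magi1 stood at -1.32 (adjusted p = 0.159), and with the mean of all probe sets at -0.16 (adjusted p = 0.796). Pard3, a further polarity protein, went the other way from Pard6b with Sall4 knockdown. It rose by 2.02 and was lost in 10 of 17 alternatives, and with the mean of all probe sets it stood at 0.13 (adjusted p = 0.944). In uninjected embryos of the Nanog experiment, 2 of these 23 regulators rose and 7 fell from 20 h to 44 h, where 9.46% of all genes rose and 16.4% fell. Limd1 (-2.92), Mpdz (-2.05) and Wwc1 (-1.90) were among the 7.

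All 8 TEAD and VGLL factors were tested. With Oct4 and with Sall4 knockdown at 44 h 0 of 8 passed in limma (0 and 0 before adjustment), and with Nanog knockdown 0 rose and 2 fell, where 3.51% of all genes rose and 1.52% fell: Tead3 (45.1 ± 17.4 against 427 ± 194; -2.79, adjusted p = 0.012) and Vgll3 (-1.71, adjusted p = 0.0226, lost in 6 of 16 and at -0.76 without the second control array). Tead3 did not pass with the experiment fitted alone (adjusted p = 0.113) or without the third control array (0.058). Tead4, the TEAD factor needed for trophectoderm, read 5098 ± 606 with the Nanog morpholino against 7447 ± 272 with the control (-0.55, adjusted p = 0.802). From 20 h to 44 h without injection 3 of the 8 rose and 1 fell in the Nanog experiment (9.46% and 16.4% of all genes). Among the other uninjected arrays 1 was higher and 2 lower (20.4% and 24.8%).

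Among 17 tested YAP and TAZ target genes other than Ccn2, 1 rose with Oct4 knockdown at 44 h, 1 fell with Sall4 and 1 rose with Nanog knockdown, where 11.5%, 3.92% and 5.03% of all genes passed. Ccn1, the closest relative of Ccn2 in the list, fell with Sall4 knockdown (138 ± 110 against 486 ± 195; -1.93, adjusted p = 0.025) and was higher with Oct4 than with Sall4 knockdown (780 ± 71.6 against 138 ± 110; 2.68, adjusted p = 0.000847). The fall was lost in 5 of 17 alternatives, among them without the second Sall4 array (adjusted p = 0.281) and without control array 1 or 3 (0.115 and 0.0959), and both calls with the mean of all probe sets (-0.62 and 0.96, adjusted p = 0.64 and 0.301). Igfbp3 rose with Oct4 knockdown (231 ± 57.8 against 33.2 ± 14.8; 2.34, adjusted p = 0.00748), in all 17 alternatives. Gadd45a rose with Nanog knockdown (3718 ± 1234 against 513 ± 467; 3.17, adjusted p = 0.000802), and not with the experiment fitted alone (0.0968).

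Of 7 lineage genes, Cdx2, a trophectoderm factor, fell with Sall4 knockdown (75.3 ± 114 against 357 ± 148; -2.75, adjusted p = 0.0418, lost in 9 of 17 alternatives, among them without any 1 of the 3 control arrays). With Oct4 knockdown Cdx2 stood at -2.30 (adjusted p = 0.0546). Gata3, also a trophectoderm factor, fell with Nanog knockdown (-3.92, adjusted p = 0.0485, lost in 10 of 17). The other lineage genes did not pass in these 3 comparisons.

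For the 3 members called in a knockdown, the genes with the most similar pattern were sought as the highest Pearson r over the 42 arrays, after values were centred within each experiment and time. This is a description, since the arrays share the injections. For Amotl2 they were Rab18 (r = 0.825), Ano6 (0.819) and Dab2 (0.817). For Mob1a they were Eif2s3x (0.919), Wdr77 (0.906) and Eif4e (0.865). For Ccn2 they were Abhd11os (0.801), Taf12 (0.719) and Hnrnph3 (0.711).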

How the data were processed

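RNA of 42 samples, 3 titled biological replicates in each of 14 groups, was measured on Affymetrix arrays after PicoPure isolation and NuGEN amplification, per the labels' protocols. Per the values and the labels, the authors deposited 1 linear intensity per probe set and array; their normalization is not described in the labels. Intensities ran from 0.42 to 133546, and 2.43% equalled 1. Precision is limited by the number of arrays. Permuting 3 arrays against 3 exactly gives no p below 0.1. Groups came from the titles. Pearson correlations between replicates were 0.896 to 0.964, so no array repeated another. Same-numbered arrays of control-injected and uninjected embryos at 20 h deviated together (r = 0.116, 0.115 and 0.123), so the numbers were taken to pair these samples, a pairing read from the data and not from the labels; the numbers of other compared groups did not meet this bar.

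Gene names came from the platform's 2016 annotation (34945 with 1 gene, 932 with several, 9160 not named, 64 controls), and RefSeq changed 0 symbols. Values became log2(intensity + 16), so changes of dim genes are understated. A gene was tested where the mean of its log2 values in at least 1 group was above that of the table's median, 71.15. That value lies below every array median of the Nanog experiment and above every other array median. A dim gene could therefore pass through the Nanog arrays alone and enter the shares of the other experiments. A filter on the arrays' own medians left 14859 genes. limma 3.58.1 in R 4.3.3 fitted a mean per group over all 42 arrays (28 residual degrees of freedom), with lmFit and eBayes, for 18 comparisons. The members and lists were chosen with earlier results of these data known. All members are named, and of the lists at most the 4 largest changes that passed per list and comparison. Besides these, Pard6b with Oct4 knockdown, Cdx2, Tead4 and Mob1b were further values chosen after seeing them. Likeness used the 3 highest correlations. The fit was tested on simulated data. Alternatives were other pseudocounts, filters, normalizations, probe set rules, array weights, a replicate block, the experiment alone and leaving out each array; a filter on the arrays' own medians was added after seeing the data. Figures used Python 3.11.15 and matplotlib 3.10.9.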

Additional observations from a re-analysis of the deposited data

Results flagged for a closer look

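The effect on Mob1a at 44 h differed between Oct4 and Nanog knockdown, each against control-injected embryos of its own experiment. The difference was -1.82 on the log2 scale (SE 0.36, adjusted p = 0.00448, limma), and it passed in all 24 alternatives. The effect on Ccn2 differed between Sall4 and Nanog knockdown by -4.41 (SE 0.59, adjusted p = 0.000308) and passed in all 24 alternatives. Ccn2 has 1 probe set, so the alternatives that change the probe set rule left its values as they were. The Sall4 arrays were low against their control arrays, and the Nanog arrays lay above theirs. Against uninjected embryos the Ccn2 change with Nanog knockdown was 0.24, and control injection in that experiment at 44 h stood at -1.09. The Ccn2 difference ran from -6.19 to -2.88 over the alternatives, and it was -2.88 with a pseudocount of 64. Experiment and factor cannot be told apart in either difference.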

How the results depend on the processing

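No called change of a member turned its sign under any alternative run. The count of members called with Oct4 knockdown at 20 h, 0, became 1 under array weights, under averaged probe sets and with every probe set fitted on its own, each time Mob1a. With Sall4 knockdown at 44 h the count of 2 became 4 with array weights, where Lats2 and Yap1 passed. With Nanog knockdown at 44 h the count of 1 became 0 with a pseudocount of 1 and with that experiment fitted alone. It became 2 with a pseudocount of 64, with the filter at the 75th percentile and under averaged probe sets, where Ccn2 passed too. Leaving out 1 array gave counts of 0 to 1 there, of 0 to 1 for control injection at 44 h in the Nanog experiment, and of 3 to 4 for uninjected embryos over time in the Nanog experiment (5 with all arrays).

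Of 42 same-numbered pairs of arrays, 5 had correlated deviations over 0.1 (r of -0.04 to 0.13), all in the Nanog experiment. Outside control injection at 20 h no comparison had all its pairs over 0.1, so the arrays of the others were taken to share only a number. Same-numbered control and uninjected arrays of the Nanog experiment at 44 h had r of 0.087, 0.133 and 0.060. Arrays of other numbers in these groups had r of -0.091 to 0.005, so a pairing below the bar may be present there. With the replicate block the counts at 44 h were 3 with Oct4, 3 with Sall4 and 1 with Nanog knockdown, Lats2 being the further member. Amotl2 against uninjected embryos with Nanog knockdown (-1.49, adjusted p = 0.0244) was lost with the block (adjusted p = 0.0561), and Amot with Sall4 and Lats2 with Oct4 knockdown passed against uninjected embryos (adjusted p = 0.0371 and 0.0186).

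Fitted on the experiment alone, with fewer arrays to estimate the spread, 444 genes rose and 589 fell with Oct4 knockdown at 44 h, against 816 and 965 with all arrays; 42 and 77 against 279 and 329 with Sall4; and 77 and 36 against 544 and 236 with Nanog knockdown. At 20 h that fit called 0 genes in any knockdown. Array weights gave 804 lower genes with Oct4 knockdown at 20 h, against 285. Low signal limits Ccn2 at 20 h.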
